A study of Homo sapiens with 2 samples.

Results

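The gene set described here holds 35 genes of the unfolded protein response: the chaperones, disulfide isomerases, degradation factors and stress sensors of the endoplasmic reticulum. It was listed as 36 names, of which VIMP is the older symbol of SELENOS. Members were found by symbol in the array's platform annotation, and every probe set named for 1 listed gene alone was read. Such a probe set was found for 33 of the 35 genes, 80 probe sets in all, out of 19775 genes on the array. PDIA5 and SYVN1 were not analysed here.

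Expression arrays were run on 2 samples, 1 untreated and 1 treated with eltrombopag, an oral thrombopoietin receptor agonist that is also an iron chelator. Both are labelled HL60, a human promyelocytic leukaemia line, with the cell type tagged as hematopoietic stem, and both were cultured in RPMI with 10% FBS. The drug was used at 3 µg/ml for 36 h. For the untreated culture no time or vehicle is given in the sources used here, so drug, time and vehicle cannot be told apart. With 1 array a group there is no replicate, and no test of any difference was possible.

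A signal is the brightness of a probe set on a linear scale, and a ratio is eltrombopag over untreated. A floor was set at a signal of 56.9, the 60th percentile of both arrays pooled, and lower signals were raised to it before ratios were taken. The brightest probe set stood for a gene, and a gene counted as measured when that probe set reached the floor in at least 1 sample, which 10314 genes did. All 33 members lay above the floor in both samples. Signals of different probe sets are not comparable, so each gene is compared only with itself. The probe-set spread was 0.26 in log2 ratio over 4374 genes. It is the SD of the difference between a gene's 2 brightest probe sets, divided by the square root of 2. It is an error within these arrays, not between cultures.

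The labelled cell type was checked against marker genes. Of 15 promyelocyte and HL60 markers on the array 12 were measured. The summed signal of all 15 was 18671 untreated and 17126 treated. SRGN (7160 and 7685) and MYC (4879 and 4476) made up most of it. Such sums add probe sets whose signals are not comparable, so they are a rough description only. Of these 12 markers 10 had a lower signal with eltrombopag, beside 6538 of all 10314 measured genes. At least 1.5-fold lower were 4, beside 11.8% of all genes: CEBPA (log2 ratio -1.55), CTSG (-0.84), RNASE2 (-0.76) and CFD (-0.61). MPO, the granule myeloperoxidase, had signals of 1556 and 1467, whereas ELANE, LYZ and SPI1 were below the floor in both. Of 17 plasma cell markers 12 were measured. All 12 had a lower signal with eltrombopag and 9 were at least 1.5-fold lower, beside the same shares of all genes. The summed signal of all 17 was 29965 untreated and 17760 treated. JCHAIN, the joining chain of secreted immunoglobulin, had signals of 7972 and 4866, and IGLC1, a lambda light chain, 10395 and 6331. IGHG1, IGKC, FCRL5, CD27 and CD79A lay below the floor in both. Measured were thus 12 of 15 promyelocyte and HL60 markers and 12 of 17 plasma cell markers. With markers of both lists present, the values leave the HL60 label in doubt. Plasma cells carry a large secretory apparatus, so these values stand beside every result that follows; their part in those results was not tested. In bulk samples fewer cells of a type and less RNA per cell cannot be told apart.

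Proteins that enter the endoplasmic reticulum are folded by the chaperone BiP and its helpers, are cross-linked by disulfide isomerases and, when they fail to fold, are carried back to the cytosol and degraded by the proteasome. Unfolded protein is sensed by IRE1, ATF6 and PERK at the membrane of the reticulum. Their downstream factors, spliced XBP1 and cleaved ATF6 among them, raise transcription of chaperone and degradation genes, in part through promoter elements called ERSE and ERSE-II.

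Of 14 chaperones and co-chaperones 9 had signals at least 1.5-fold higher with eltrombopag, as did 2 of 6 disulfide enzymes and 2 of 11 degradation factors, while CANX and several other members hardly differed. A log2 ratio above 0 was seen in 26 of 33 members, beside 36.6% of all measured genes. At least 2-fold higher were 4 members, FICD, MANF, ERO1B and HYOU1, where 0.650% of all genes were, and at least 2-fold lower was 0, where 2.27% were. At 1.5-fold, 13 members were higher (3.49% of all genes) and 0 lower (11.8%). The median log2 ratio of the members was 0.45, with a range from -0.31 to 2.09. Genes that exceeded the floor on both arrays had a median of -0.12, a slight downward shift, and relative to that shift the members' median was 0.57. After this centring HSP90B1 (1.06) and CRELD2 (1.05) also passed a log2 ratio of 1, which made 6 members at 2-fold or more beside 1.04% of all genes. No member changed its sign under median centring, quantile normalization or lowess.

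**Figure D1:**
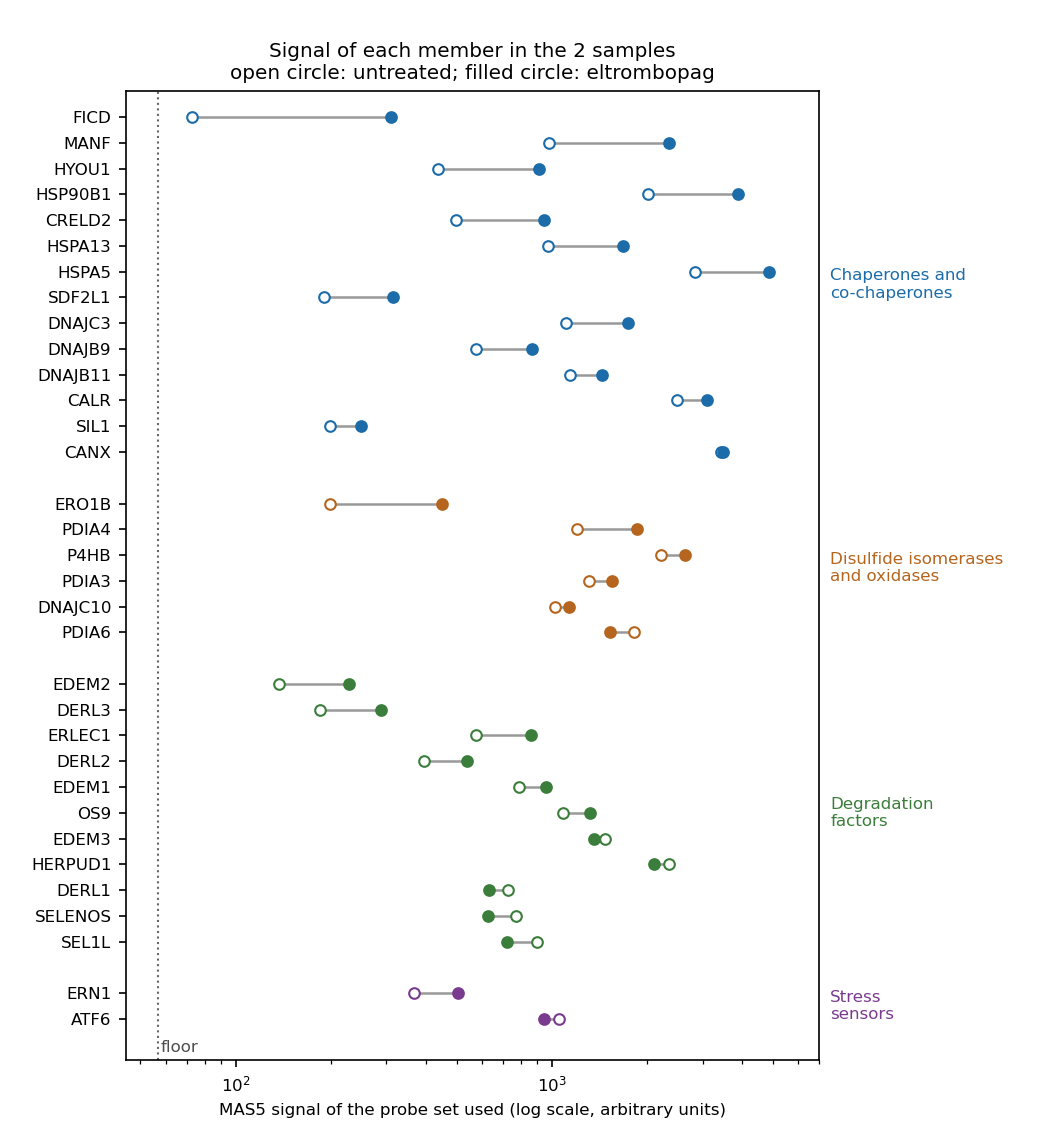
Signal of each of the 33 measured members in the untreated and the eltrombopag sample (log axis), by role, 1 point a sample. The chaperones lie to the right with eltrombopag, FICD from 72.7 to 309.8 the farthest, while the degradation factors lie on either side of their untreated value.

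Promoter sequence was available for 32 members in the RefSeq windows of GRCh38.p14, which run from 250 bases before to 50 bases after a gene's start. Both strands were searched for ERSE, spelled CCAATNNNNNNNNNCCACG, and ERSE-II, spelled ATTGGNCCACG, which share their last bases, so that 1 stretch can match both when a mismatch is allowed. An exact ERSE was found in 8 of the 32 members and in 25 of all 27305 gene symbols with a window (0.0916%), the 8 members included. An exact ERSE-II was found in 3 of the 32 and in 19 of all symbols (0.0696%). Counted by window, since a gene can have several, an exact ERSE lay in 10 of 37 member windows and in 27 of all 35116 (0.0769%). Both elements are known from chaperone and degradation genes of this response, so these shares are no independent result about the members. The 11 members with an exact match are shown because they hold both the higher chaperones and members whose signal hardly differed. Each sequence runs 5′ to 3′ on the gene's strand, and the capitals mark the element, which reads as its reverse complement where it lies on the opposite strand.
HSPA5, chr9:125241344-125241493, minus strand, 150 bases up to the start, ERSE: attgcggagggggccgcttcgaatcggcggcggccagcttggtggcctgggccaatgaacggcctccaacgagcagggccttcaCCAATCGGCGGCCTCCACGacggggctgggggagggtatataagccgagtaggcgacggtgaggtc
HSP90B1, chr12:103930306-103930354, plus strand, ERSE: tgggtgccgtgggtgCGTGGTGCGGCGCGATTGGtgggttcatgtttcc
FICD, chr12:108515108-108515156, plus strand, ERSE: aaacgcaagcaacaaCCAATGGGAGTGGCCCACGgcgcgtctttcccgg
CRELD2, chr22:49918539-49918587, plus strand, ERSE: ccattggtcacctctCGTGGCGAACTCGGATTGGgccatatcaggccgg
ERO1B, chr1:236282168-236282208, minus strand, ERSE: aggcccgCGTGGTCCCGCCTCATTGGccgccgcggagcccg
CALR, chr19:12938369-12938417, plus strand, ERSE: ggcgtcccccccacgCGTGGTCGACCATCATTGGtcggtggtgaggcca
CANX, chr5:179698763-179698811, plus strand, ERSE: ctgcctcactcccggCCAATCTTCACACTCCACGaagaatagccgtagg
PDIA6, chr2:10812838-10812886, minus strand, ERSE: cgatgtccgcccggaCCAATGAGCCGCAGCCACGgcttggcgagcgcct
HYOU1, chr11:119057259-119057299, minus strand, ERSE-II: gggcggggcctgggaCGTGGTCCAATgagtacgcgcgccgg
SDF2L1, chr22:21642099-21642139, plus strand, ERSE-II: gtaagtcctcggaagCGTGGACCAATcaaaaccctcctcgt
HERPUD1, chr16:56932010-56932050, plus strand, ERSE-II: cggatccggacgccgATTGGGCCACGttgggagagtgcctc

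HSP90B1 held a second exact ERSE 194 bases before its start, beyond the one shown at 89, and HYOU1 a second exact ERSE-II at 185 beyond the one at 79. The element lay 66 bases before the start in HSPA5, 80 in CRELD2, 86 in PDIA6, 117 in HERPUD1, 151 in CANX, 154 in FICD, 188 in SDF2L1, 225 in CALR and 243 in ERO1B. The 11 members with an exact element had a median log2 ratio of 0.78, and 7 of them were at least 1.5-fold higher (3.49% of all genes). All of them but PDIA6, ERO1B and HERPUD1 are chaperones or co-chaperones. The values of the 11 still ran from -0.26 (PDIA6) to 2.09 (FICD). DNAJC3, MANF, SEL1L and SYVN1 matched only with 1 mismatch allowed, a looser match that 1.89% of all gene symbols hold for ERSE and 1.46% for ERSE-II. Of the 17 members with neither match 16 were measured. Their median log2 ratio was 0.33, from -0.30 to 0.80, and 3 were at least 1.5-fold higher, beside the same 3.49%. Among these 17 only HSPA13, DNAJB9, DNAJB11 and SIL1 are chaperones or co-chaperones. The part of a member's role in these medians was not tested. The 33 other genes with an exact element, 18 of them measured, had a median of -0.01 with 9 of 18 above 0 (36.6% of all genes). A match is a description of the letters, not of binding. PDIA3, DERL1 and DERL3 had no entry among the windows.

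**Figure D2:**
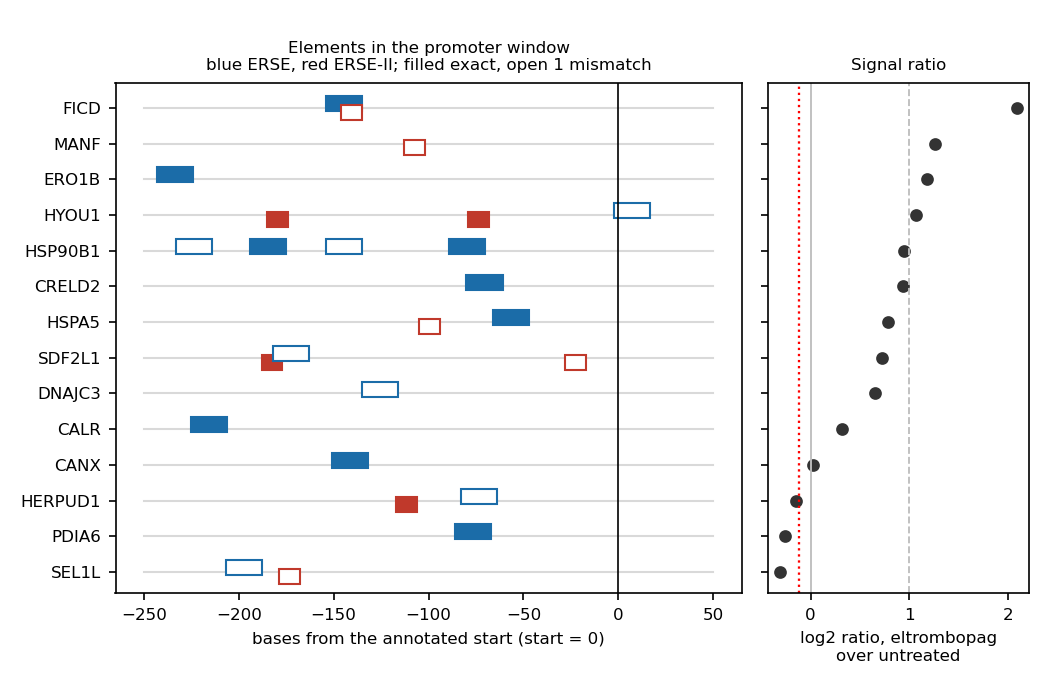
Position of each ERSE and ERSE-II match, in bases relative to the gene's start, beside each member's log2 ratio of eltrombopag over untreated. Filled bars are exact matches, held by 11 members, and open bars have 1 mismatch. DNAJC3, MANF and SEL1L hold open bars only, and SYVN1, which has no ratio, is left out. Members with an exact match range from PDIA6 at -0.26 to FICD at 2.09, and SEL1L is at -0.31. A match thus went with both higher and slightly lower signals.

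HSPA5 encodes BiP, the Hsp70 chaperone of the reticulum lumen that also binds the stress sensors. Its signal was 2842 untreated and 4880 with eltrombopag, 1.72-fold higher (log2 ratio 0.78), and its dimmer probe set went from 128.2 to 267.7 (1.06). HSP90B1 encodes GRP94, the Hsp90 of the lumen, and had signals of 2019 and 3882, 1.92-fold higher (0.94). The other HSP90B1 probe set went from 296.1 to 397.7 (0.43), and both carry the suffix _x_at, which marks probes that can match other transcripts. Both probe sets of both main chaperones were thus higher in the treated sample. HSPA13, a microsomal protein with an Hsp70 ATPase domain, had signals of 969.7 and 1683 (0.80) in the brighter probe set and of 243.4 and 208.4 (-0.22) in the other. Its probe sets therefore disagree in direction.

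The factors that act on BiP's nucleotide cycle included the members with the highest ratios. FICD, the enzyme that attaches AMP to BiP and removes it, had a signal of 72.7 untreated and 309.8 treated, 4.26-fold higher (2.09), the highest ratio of the 33 members and rank 6 of 10314 genes. It rests on 1 probe set whose untreated signal was near the floor, and with the floor at the 75th percentile its log2 ratio was 0.86. HYOU1, the large Hsp70 relative GRP170 that exchanges BiP's nucleotide, went from 435.5 to 914.0, 2.10-fold higher (1.07), on 1 probe set. SIL1, another exchange factor of BiP, was 199.4 and 248.5 (0.32). MANF, a small protein of the reticulum that binds BiP and can be secreted, had signals of 976.7 and 2340, 2.4-fold higher (1.26, rank 34), also on 1 probe set.

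DNAJC3, DNAJB9 and DNAJB11, co-chaperones of BiP, and the members SDF2L1 and CRELD2 had log2 ratios from 0.34 to 0.93. DNAJC10 is given with the disulfide enzymes and was at 0.15. DNAJC3, the luminal co-chaperone known as P58IPK, went from 1107 to 1736 (0.65), and 2 further probe sets that exceeded the floor on both arrays gave 0.92 and 0.79. For DNAJB9, a co-chaperone that restrains IRE1 through BiP, signals were 576.3 and 863.2 (0.58), with 0.70 and 0.02 in the other probe sets. DNAJB11, which delivers nascent chains to BiP, had signals of 1140 and 1442 (0.34). SDF2L1, a partner of DNAJB11, was 190.4 untreated and 313.6 treated (0.72), each on 1 probe set. CRELD2, a secreted and luminal protein known as a target of reticulum stress, went from 496.4 to 943.8, 1.90-fold higher (0.93). The difference in DNAJB11 was thus close to the probe-set spread, and that in CRELD2 close to the one in HSP90B1.

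The lectin chaperones, which hold glycoproteins that carry a single glucose, differed least among the chaperones. CALR, the soluble calreticulin, had signals of 2484 and 3092 (0.32), with 0.21 and -0.18 in its dimmer probe sets. CANX, the membrane-bound calnexin, was 3425 and 3480 (0.02), and its other probe sets above the floor gave 0.32, -0.22 and -0.56. For neither gene did the probe sets share 1 direction. By brightest probe set all 14 chaperones and co-chaperones were above 0, beside 36.6% of all measured genes. A 2-fold higher signal was seen in 3 (0.650% of all) and a 1.5-fold higher one in 9 (3.49%), and their median log2 ratio was 0.75. With probe sets averaged, CANX was at -0.11.

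**Figure D3:**
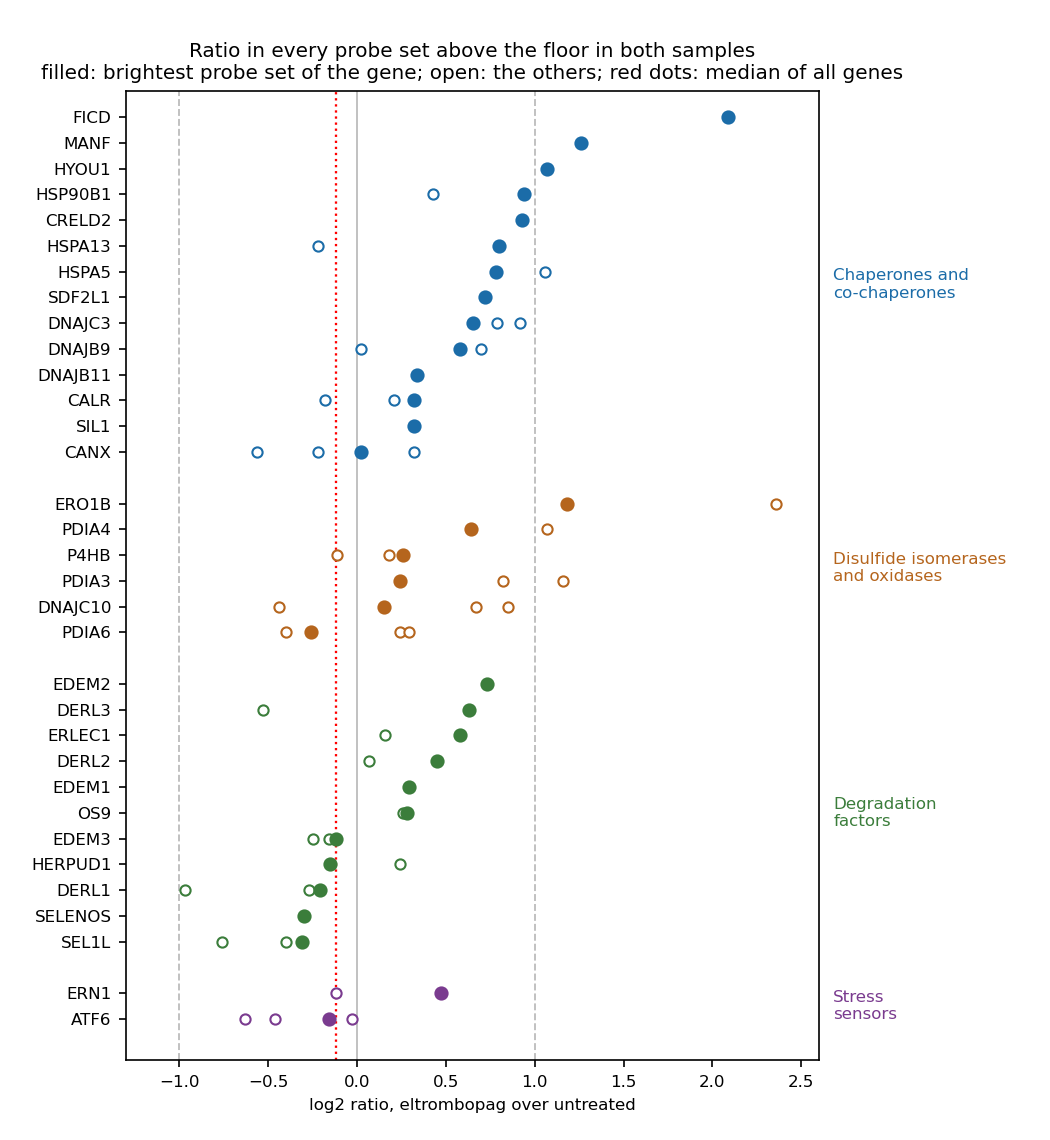
Log2 ratio of eltrombopag over untreated for every member probe set that exceeded the floor on both arrays, 1 row a gene by role, with the brightest probe set marked apart. Probe sets of HSPA5, DNAJC3, PDIA4 and ERO1B lie to the right of 0 throughout, those of SEL1L, DERL1 and ATF6 to the left, and those of CANX and PDIA6 on both sides.

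Among the disulfide enzymes, the oxidase ERO1B and the isomerase PDIA4 had the higher signals. ERO1B passes electrons from protein disulfide isomerase to oxygen; its signal was 198.5 untreated and 450.9 treated, 2.27-fold higher (1.18). The second ERO1B probe set went from 76.83 to 393.8 (2.36). PDIA4, an isomerase with an additional thioredoxin-like domain, had signals of 1198 and 1864 (0.64), and 299.6 and 630.7 (1.07) in its other probe set. These were the only isomerase or oxidase genes at 1.5-fold or more by their brightest probe set.

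By their brightest probe set the remaining isomerases were close to their untreated signal, but dimmer probe sets of PDIA3 and DNAJC10 were higher. PDIA3, the partner of calnexin and calreticulin, had signals of 1307 and 1545 (0.24), though its dimmer probe sets gave 0.82 and 1.16. P4HB, the founding protein disulfide isomerase, was 2215 and 2647 (0.26), with 0.18 and -0.11 in the others. DNAJC10, a reductase that works with BiP in degradation, was 1023 and 1134 (0.15), with 0.67, 0.85 and -0.44 in 3 further ones that exceeded the floor on both arrays. PDIA6, an isomerase that also acts on the sensors, went from 1818 to 1523 (-0.26), and its other probe sets gave 0.24, 0.29 and -0.40. The sign for P4HB, DNAJC10 and PDIA6 hence differed between their own probe sets. Of the 6 measured genes of this group 5 were above 0, beside 36.6% of all measured genes, and the group's median log2 ratio was 0.25.

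The degradation factors lay on both sides of 0, with 6 above and 5 below, beside 36.6% of all measured genes above 0. Their median log2 ratio was 0.28. At 2-fold there were 0 in either direction, where 0.650% of all genes were higher and 2.27% lower. Only EDEM2 and DERL3 were at least 1.5-fold higher (3.49% of all genes). Several members recognise or trim misfolded glycoproteins. EDEM2, which starts the trimming of mannose, had signals of 137.3 and 227.9 (0.73) on 1 probe set, and a log2 ratio of 0.42 with the floor at the 75th percentile. EDEM1, a mannosidase-like factor of the same family, was 785.5 and 958.8 (0.29). EDEM3, a trimming mannosidase, went from 1478 to 1356 (-0.12, or -0.00 after median centring), with -0.16 and -0.25 in its other probe sets. The lectin ERLEC1 had signals of 574.2 and 856.6 (0.58, other probe set 0.16). OS9, the lectin that hands trimmed glycoproteins to the ligase complex, was 1085 and 1320 (0.28, other probe set 0.26).

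Other members build the membrane complex around the ligase. SEL1L, the adaptor of the ubiquitin ligase SYVN1, had signals of 896.1 and 721.5 (-0.31), and its other probe sets above the floor gave -0.40 and -0.76. HERPUD1, the membrane protein that organises this ligase, was 2344 and 2112 (-0.15), whereas a dim probe set near the floor went from 57.54 to 67.94 (0.24). SELENOS, the selenoprotein that recruits the ATPase VCP, had signals of 771.4 and 628.2 (-0.30). So SEL1L, HERPUD1 and SELENOS were each lower with eltrombopag by the brightest probe set, as were 6538 of all 10314 measured genes. The amounts were near the probe-set spread. After median centring they were -0.19 for SEL1L, -0.03 for HERPUD1 and -0.18 for SELENOS, all within that spread.

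The derlins, membrane proteins of the retrotranslocation channel, differed from one another. DERL1 was 728.8 untreated and 631 treated (-0.21, or -0.09 after median centring), with -0.27 and -0.97 in its other probe sets above the floor. DERL2 went from 393.2 to 538.6 (0.45), with 0.07 in the second probe set. DERL3 had signals of 185.3 and 287.2 (0.63) by the brightest probe set and of 151.3 and 104.8 (-0.53) by another, which carries the suffix _x_at. DERL1 thus lay below and DERL2 above its untreated signal in each of these probe sets, and DERL3 had no single direction.

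The stress sensors on the list were opposite in sign by their brightest probe set, though ATF6 lay close to the array as a whole. ERN1 encodes IRE1, the kinase and nuclease that splices XBP1 mRNA; its signal was 365.8 untreated and 505.6 treated (0.47), with -0.12 in a dimmer probe set. ATF6, the sensor that is cleaved in the Golgi to release a transcription factor, was 1054 and 945.1 (-0.16), and the other probe sets gave -0.46, -0.03 and -0.63. Every ATF6 probe set was therefore lower, while the ERN1 probe sets disagreed. All probe sets were lower in 41.2% of genes with at least 2 above the floor on both arrays. After median centring the brightest probe sets gave 0.59 for ERN1 and -0.04 for ATF6.

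At least 2 probe sets exceeded the floor on both arrays in 23 members, and 10 of these had all such probe sets higher, beside 20.1% of the 4374 genes with at least 2. These were HSPA5, HSP90B1, DNAJB9, DNAJC3, PDIA3, PDIA4, ERO1B, DERL2, OS9 and ERLEC1. All probe sets were lower in 4, SEL1L, DERL1, EDEM3 and ATF6, beside 41.2% of genes, and 9 members were mixed. FICD, MANF, HYOU1, CRELD2, SDF2L1 and EDEM2, which were at least 1.5-fold higher, belong to the 10 members with a single probe set and have no such check.

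Other genes of the response lay on both sides of 0. Of 18 further regulators 14 were measured, 7 above and 7 below 0 beside the same 36.6%, with a median log2 ratio of -0.02 and 0 at 2-fold. Relative to the array's shift of -0.12, 11 lay above and 3 below, beside 5145 of all 10314 genes above. Their median after this centring was 0.10. The highest of them were CREB3L2, a membrane-bound transcription factor, at 0.70 by its brightest probe set (others -0.35 and 0.04), DDIT3, the transcription factor CHOP, at 0.54 and EIF2AK3, the sensor PERK, at 0.37. The lowest were MBTPS2, a protease that cleaves ATF6, at -0.72, BAX at -0.69 with its treated signal at the floor, and ATF6B at -0.50. XBP1 had signals of 3441 and 3268 (-0.07), which do not tell its spliced and unspliced forms apart, and ATF4 a log2 ratio of 0.10.

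A wider list of 44 reticulum folding factors outside the 35 members had 37 measured, 13 above and 24 below 0, and a median log2 ratio of -0.17; 36.6% of all measured genes were above 0, with a median of -0.12. FKBP14, a prolyl isomerase of the lumen, went from 253.2 to 562, 2.22-fold higher (1.15), with PPIC (0.96) and PPIB (0.39), also prolyl isomerases, next. FKBP11, a prolyl isomerase that is also on the plasma cell list, went from 1738 to 479.2 (-1.86), CLGN, a relative of calnexin, was at -1.18 and PRDX4, a peroxiredoxin of the lumen, at -0.99. Among 43 other degradation factors 39 were measured, 16 above and 23 below 0, with a median of -0.09, also close to the array as a whole. SPPL2A (0.62, with -0.34 and -0.12 in other probe sets), ANKZF1 (0.36) and BAG6 (0.30) were the highest. MAN1A1, a mannosidase, went from 464.6 to 162.4 (-1.52), followed by RAD23B (-0.62) and UBE2J1 (-0.58). These lists were not tested against the members, and their counts are descriptions of 2 arrays.

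**Figure D4:**
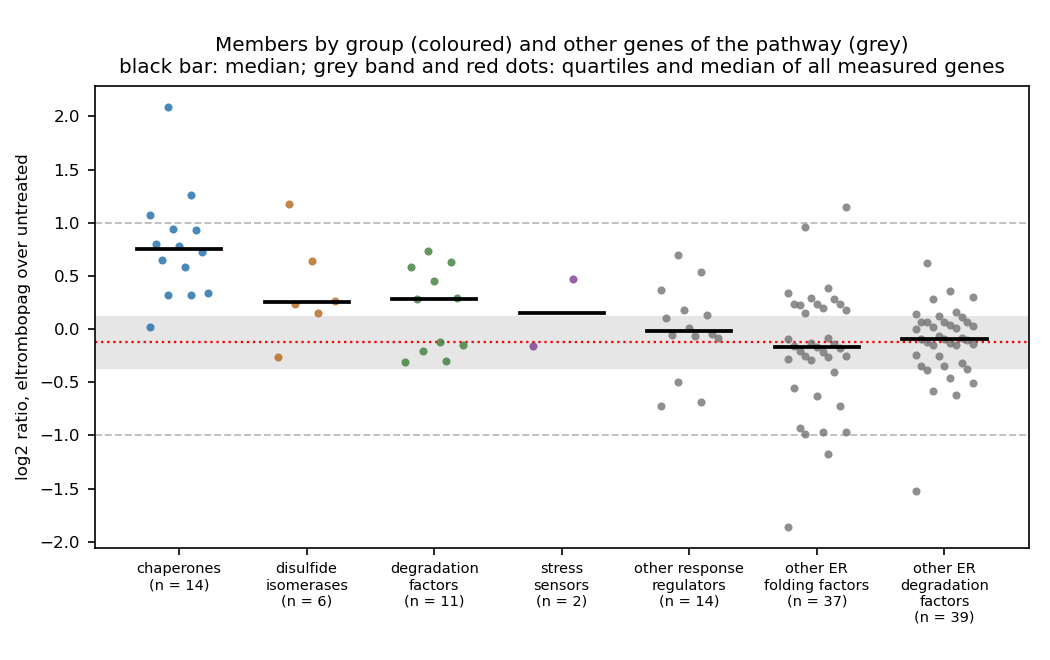
Log2 ratio of eltrombopag over untreated for each measured gene of the 4 member roles and of the 3 lists of other genes, 1 point a gene, with each median as a line and the median of all genes that exceeded the floor on both arrays, -0.12, for reference. The chaperones, with a median of 0.75, all lie above 0, while the regulators (-0.02), other folding factors (-0.17) and other degradation factors (-0.09) spread to both sides.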

How the data were processed

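Biotin-labelled cRNA from 2 samples was hybridised to expression arrays, per the labels' protocols. The table deposited by the authors holds linear intensity values, 1 for each probe set on each array. The submitters' processing notes name MAS5, a method that summarises perfect-match and mismatch probes within an array; version and scaling target are not given in the sources used. Of 54613 probe sets, 41091 named 1 gene in the platform annotation, 1801 several and 11721 were not listed; only the first were used. No further scaling was applied. The floor, brightest probe set and 2-fold threshold followed an earlier treatment of this table, and the members and lists were chosen with earlier results of these data known. All members are named, and of each other list the 3 measured genes with the highest and lowest log2 ratios; XBP1 and ATF4 were added after their values were seen. The promoter search was likewise added after the values were seen. With 1 array per group precision is limited, and no SD between samples or p-value exists. Alternatives were other scalings, floors, thresholds and probe-set rules. The counting was tested on simulated data. Python 3.11.15, numpy 2.4.6, pandas 2.3.3, statsmodels 0.14.6 and matplotlib 3.10.9 were used.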

Additional observations from a re-analysis of the deposited data

How the results depend on the processing

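No replicate could be left out, and no paired analysis was possible because each group holds 1 sample. The number of members at least 2-fold higher was 4 as reported, 6 under each of 3 scalings and 3 with the floor at the 75th percentile, where FICD dropped below 2-fold. It was 13 at a threshold of 1.5-fold and 1, FICD, at 3-fold. The count of members at least 2-fold lower was 0 under every alternative tried. The members' median log2 ratio ran from 0.29, with probe sets averaged, to 0.59 with lowess, and the chaperones' from 0.65 to 0.87. The median of the disulfide enzymes ran from 0.25 to 0.50, and that of the degradation factors from 0.05, with probe sets averaged, to 0.45 when _x_at and _s_at probe sets were left out, which gave a value for 26 members. Averaging turned the sign of CANX and HERPUD1, and leaving out those suffixes that of CALR and HERPUD1; probe sets of 1 gene disagreed there. Averaging also moved 6 members beyond the probe-set spread. PDIA3 (from 0.24 to 0.74) and ERO1B moved up, and HSPA13, DERL1, DERL3 and ERN1 moved down. Signals near the floor, as for FICD, set the size of a ratio less firmly than bright ones.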

Other observations

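Of the 33 other genes with an exact promoter element 18 were measured, and those named here were chosen after their values were seen. NUCB1, a calcium-binding protein of the Golgi, holds an exact ERSE-II and had signals of 282.2 and 416.5 (log2 ratio 0.56). SERP1, a membrane protein linked to the translocon, and XBP1 each hold an exact ERSE, with log2 ratios of -0.12 and -0.07. ALG12, a mannosyltransferase of glycan assembly, shares the element of CRELD2 and had a log2 ratio of 0.09 beside 0.93 for CRELD2. TRIM5, a restriction factor, was the 1 measured gene of these 18 at 2-fold or more, from 87.94 to 176.6 (1.01). EIF2A, an initiation factor, had a log2 ratio of 0.31.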
